A study of Mus musculus with 13 samples.

Results

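The skeletal muscle genes examined here were 10 rows of the count table, chosen by symbol, among 24421 genes in all. Of these, 7 encode proteins of fast-twitch fibers (the myosin heavy chains Myh1, Myh2 and Myh4, the myosin light chain Mylpf and the troponins Tnnt3, Tnni2 and Tnnc2), 1 encodes the myosin heavy chain of slow-twitch fibers (Myh7), and 2 serve both fiber types (the actin Acta1 and the creatine kinase Ckm). All 10 symbols were found in the table. The values are read counts from bulk RNA of MMTV-HER2/neu females, with 11 tumors of the breast and 2 glands free of cancer, and the question asked was how much of these muscle transcripts each library held and whether fast and slow fiber genes came together.

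All mice were FVB/N animals of the MMTV-HER2/neu line 202Mul/J, in which a viral promoter drives the rat transgene mainly in breast epithelium, so the 2 glands (untreated, cancer-free) are transgenic as well. Primary untreated tumors (n = 3) arose in mice on plain water. Primary STV tumors (n = 3) arose in mice whose water held stavudine, which blocks reverse transcriptase, at 1 mg/mL. The protocol has this water begin at 2 months of age or once a first tumor had appeared, and tumors that arose on it fall under the earlier start. Recurrent DMAG tumors (n = 3) came back once 17-DMAG, which inhibits HSP90, had cleared the first tumor. It was injected at 20 mg/kg 3 times per week, and according to the methods the injections went on while tumors regrew. Recurrent DMAG plus STV tumors (n = 2) came back likewise in mice on stavudine, and the protocol does not say which start applied to a given mouse. Ages at collection are not given in the sources used here. The labels call each tumor individual but do not name the mouse, so p-values measure the spread between these samples.

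Skeletal muscle fibers contract by sliding thick filaments of myosin along thin filaments of actin, with the troponin complex acting as the calcium switch of the thin filament. Each fiber type uses its own myosin heavy chain: Myh4, Myh1 and Myh2 encode the fast IIb, IIx and IIa forms, whereas Myh7 encodes the slow type I form that also serves the heart. None of these genes is a known product of mammary epithelium, and mouse mammary glands lie in fat beneath skin that carries a thin muscle layer of its own.

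The 3 fast myosin genes lie side by side on chromosome 11 and Myh7 lies on chromosome 14, so the 250 bases before the start of each are shown to let the reader compare fast and slow promoters (RefSeq, GRCm38.p6, each read along the strand of its gene). The windows are chr11:67237562-67237811 (plus strand) for Myh4, chr11:67199852-67200101 (plus strand) for Myh1, chr11:67170777-67171026 (plus strand) for Myh2 and chr14:54994550-54994799 (minus strand) for Myh7. Capitals mark the longest run of bases common to the 3 fast genes.
Myh4: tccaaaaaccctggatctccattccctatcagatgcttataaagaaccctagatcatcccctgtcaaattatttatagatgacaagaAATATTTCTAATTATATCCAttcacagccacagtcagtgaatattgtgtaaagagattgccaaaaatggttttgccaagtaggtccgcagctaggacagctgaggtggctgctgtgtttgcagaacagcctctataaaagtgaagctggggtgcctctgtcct
Myh1: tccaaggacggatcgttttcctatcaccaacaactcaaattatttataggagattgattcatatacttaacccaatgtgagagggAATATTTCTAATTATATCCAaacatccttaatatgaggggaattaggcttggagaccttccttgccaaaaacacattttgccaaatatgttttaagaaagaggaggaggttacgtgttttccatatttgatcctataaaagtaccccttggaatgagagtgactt
Myh2: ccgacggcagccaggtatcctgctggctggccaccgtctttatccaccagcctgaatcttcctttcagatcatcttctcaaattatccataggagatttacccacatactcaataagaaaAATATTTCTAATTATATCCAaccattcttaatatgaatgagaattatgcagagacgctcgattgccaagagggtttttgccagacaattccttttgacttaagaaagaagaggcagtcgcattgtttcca
Myh7: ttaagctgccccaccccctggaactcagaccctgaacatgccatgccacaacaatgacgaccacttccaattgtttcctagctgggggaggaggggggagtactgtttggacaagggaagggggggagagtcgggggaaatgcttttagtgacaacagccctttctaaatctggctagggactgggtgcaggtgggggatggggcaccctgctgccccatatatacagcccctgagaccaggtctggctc
The capitalized run is 20 bases long and begins 163 bases before the start of Myh4, 165 before that of Myh1 and 130 before that of Myh2. It occurred, on either strand, in 3 of 32851 windows of this length (0.0091%), which were those of Myh1, Myh2 and Myh4 themselves. The Myh7 window holds no such run. A MEF2 consensus, found in 2.92% of all windows, was present in those of Myh4 and Myh1, and a CArG box, found in 1.47%, was present in those of Myh4 and Acta1. The letters TATAAA, found in 12.4% of windows and overlapping the MEF2 consensus in Myh4 and Myh1, were present in Myh4, Myh1 and Acta1. The E-box CANNTG, found in 66.2%, was absent from the windows of Myh1 and Myh2. These matches describe the letters only. Of the 10 genes, 8 had a window in the table used; Tnnt3 and Tnni2 had none.

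In the GENCODE M21 annotation of GRCm38, Myh2 (chr11:67171027-67197517), Myh1 (chr11:67200052-67224575) and Myh4 (chr11:67238029-67260446) follow each other on the plus strand. Tnni2 (chr7:142441808-142444410) and Tnnt3 (chr7:142498836-142516009) are neighbors on the plus strand of chromosome 7, which also holds Ckm (chr7:19404776-19422841) and Mylpf (chr7:127208890-127214298). Myh7 (chr14:54970684-54994626), Acta1 (chr8:123891769-123894751) and Tnnc2 (chr2:164777161-164779967) are on the minus strand. The myosin heavy chains resemble each other closely: 26.7% of the 50-base words of the longest Myh1 transcript also occurred in another gene, as did 26.9% for Myh2, 18.9% for Myh4 and 22.2% for Myh7. For Myh7 all of these words were shared with its heart neighbor Myh6, so the split of reads among myosins is uncertain, whereas Ckm, Mylpf, Tnnt3, Tnni2 and Tnnc2 shared no such word with another gene. Whether strand was used in counting is not given in the sources used here, and genes on the opposite strand overlap all members but Myh4, Mylpf and Tnni2.

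Library totals ran from 39921388 to 56887708 counts, and 3 counts, taken as the floor, equalled 0.0587 to 0.107 CPM (counts per 1000000, scaled by library total and TMM factor). The 6 mammary epithelial markers examined (Krt8, Krt18, Krt19, Epcam, Cdh1 and Elf5) were above 3 counts in all 13 libraries. Low counts were often even: among values of 1 to 10 counts, 74.9% to 78.3% per library were even numbers. Where a fragment enters as 2 counts, the 95% Wilson intervals given below, which cover counting error only, are too narrow. In bulk RNA, fewer muscle cells and less RNA per muscle cell cannot be told apart.

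The 10 genes together were abundant in 5 libraries and nearly absent from the others. Their summed counts were 52436, 56 and 263 in primary untreated tumors 1, 2 and 3, 66, 7086 and 66 in primary STV tumors, 169, 33 and 21407 in recurrent DMAG tumors, 736 and 81692 in recurrent DMAG plus STV tumors, and 343 and 48856 in the glands. Each of the 5 groups thus held exactly 1 library above 1000 muscle counts. As a share of all counts, these were 0.177% (95% Wilson interval 0.176% to 0.178%) in recurrent DMAG plus STV tumor 2, 0.111% (0.110% to 0.112%) in primary untreated tumor 1, 0.0859% (0.0851% to 0.0866%) in gland 2, 0.0475% (0.0469% to 0.0482%) in recurrent DMAG tumor 3 and 0.0163% (0.0160% to 0.0167%) in primary STV tumor 2. The next library, recurrent DMAG plus STV tumor 1, held 0.0015%.

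A limit of 1000 summed counts, chosen after the values were seen, separates these 5 libraries, called member-rich below, from the other 8. The nearest inside the limit was primary STV tumor 2 with 7086 counts, and the nearest outside was recurrent DMAG plus STV tumor 1 with 736. Since the limit uses the genes' own values, no average or test was made across it, and libraries are described one by one. Scaling mattered for gland 2, whose TMM factor was 0.493 against 0.999 to 1.12 in the other libraries. Its 5 milk protein genes summed to 537113 CPM with that factor, which raises CPM, so this is not their share of the counts. The highest of them, Csn2, had 6433364 of the 56887708 counts. In gland 2 the members summed to 1743 CPM with that factor and to 859 CPM by library total alone. The rank of gland 2 above or below recurrent DMAG plus STV tumor 2 (1665 CPM) thus depends on the scaling.

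**Figure D1:**
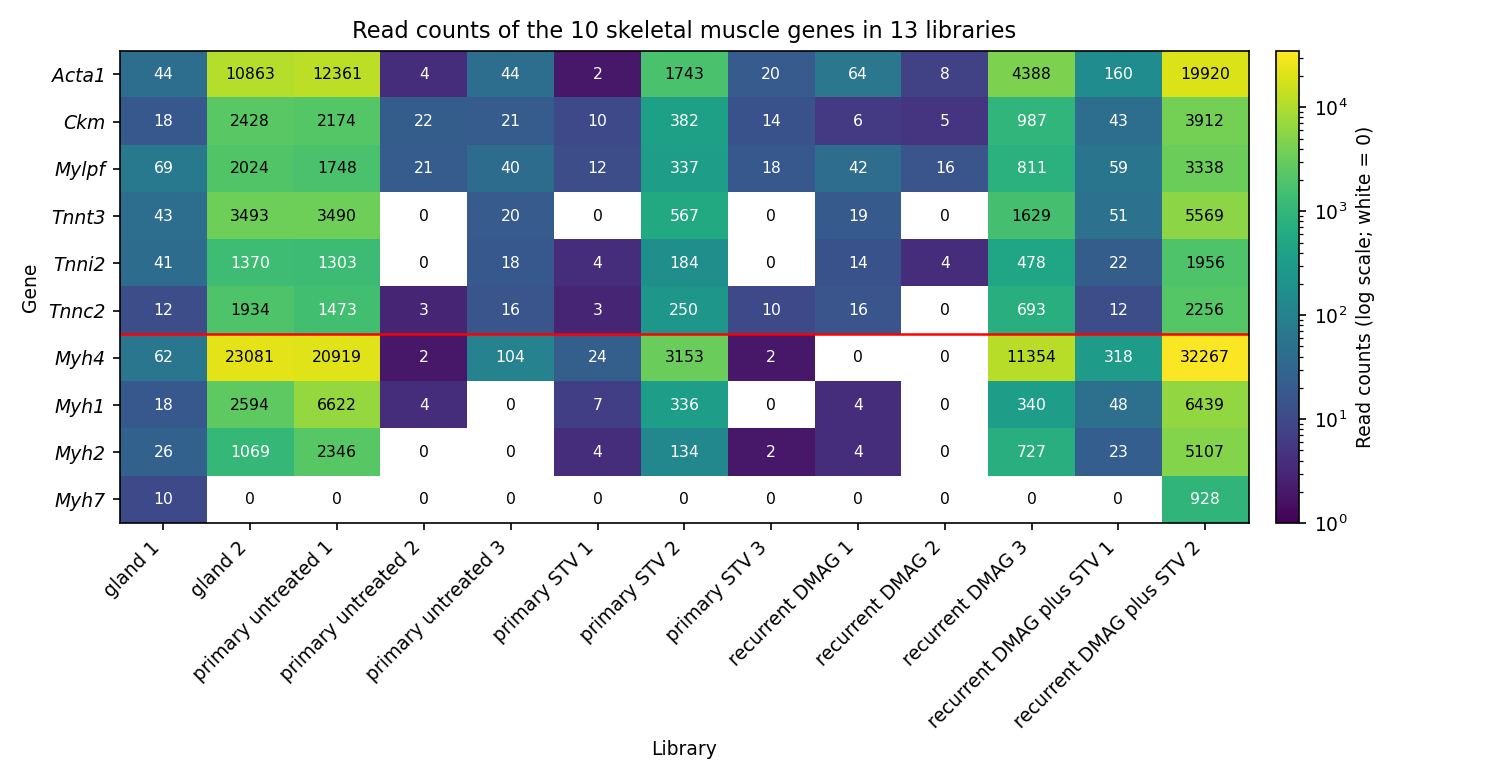
Read counts of the 10 genes (rows, with the myosin heavy chains below the red line) in the 13 libraries (columns), printed in each cell and colored on a log scale, with white for 0. Each group has 1 column of high counts, and Myh7 is above 0 in gland 1 (10 counts) and recurrent DMAG plus STV tumor 2 (928 counts) only.

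Acta1, the actin of skeletal muscle thin filaments, had 12361, 4 and 44 counts in primary untreated tumors 1, 2 and 3 (246, 0.0815 and 0.882 CPM). It had 2, 1743 and 20 counts in primary STV tumors, 64, 8 and 4388 in recurrent DMAG tumors, 160 and 19920 in recurrent DMAG plus STV tumors, and 44 and 10863 in the glands. Its level ran from 0.046 CPM, on 2 counts and thus under the floor, to 406 CPM. Per kilobase of its longest coding transcript, Acta1 was the most abundant of the 10 genes in all 5 member-rich libraries, with a level of 170 CPM per kb in primary untreated tumor 1, 268 in gland 2, 63.7 in recurrent DMAG tumor 3, 26.2 in primary STV tumor 2 and 281 in recurrent DMAG plus STV tumor 2.

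Ckm, which regenerates ATP from creatine phosphate in muscle cells, followed the same order among the 4 member-rich tumors. Its counts in the member-rich libraries were 3912 in recurrent DMAG plus STV tumor 2, 2428 in gland 2, 2174 in primary untreated tumor 1, 987 in recurrent DMAG tumor 3 and 382 in primary STV tumor 2, against 5 to 43 in the other 8. Its level per kilobase depends on the transcript used. In recurrent DMAG plus STV tumor 2 it was 29.1 CPM per kb with the 2742-base transcript and 64.6 with the 1235-base transcript.

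The troponins set the calcium response of the thin filament: Tnnc2 binds calcium, Tnni2 inhibits, and Tnnt3 anchors the complex to tropomyosin. Tnnt3 had 3490 counts in primary untreated tumor 1, 3493 in gland 2, 1629 in recurrent DMAG tumor 3, 567 in primary STV tumor 2 and 5569 in recurrent DMAG plus STV tumor 2, against 0 to 51 in the other 8 libraries, of which 4 were at 0. Tnni2 ranged from 184 to 1956 counts in the member-rich libraries and from 0 to 41 in the others. Tnnc2 ranged from 250 to 2256 and from 0 to 16. Mylpf, the regulatory light chain of fast myosin, had 337 to 3338 counts in the member-rich libraries and 12 to 69 in the others, and it was the only one of the 7 fast members above 3 counts in every library.

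Myh4, the IIb chain of the fastest fibers, was the myosin with the most counts in each member-rich library. It had 20919, 2 and 104 counts in primary untreated tumors 1, 2 and 3, 24, 3153 and 2 in primary STV tumors, 0, 0 and 11354 in recurrent DMAG tumors, 318 and 32267 in recurrent DMAG plus STV tumors, and 62 and 23081 in the glands. In CPM, the member-rich libraries ran from 68.6 in primary STV tumor 2 to 824 in gland 2 (658 in recurrent DMAG plus STV tumor 2). Recurrent DMAG tumor 1 had 64 Acta1 and 42 Mylpf counts but 0 Myh4 counts. It was not alone in this: the same genes had 8, 16 and 0 counts in recurrent DMAG tumor 2 and 20, 18 and 2 in primary STV tumor 3.

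Myh1 and Myh2, the IIx and IIa chains, varied more than Myh4 from library to library. Myh1 had 6622 counts in primary untreated tumor 1, 6439 in recurrent DMAG plus STV tumor 2, 2594 in gland 2, 340 in recurrent DMAG tumor 3 and 336 in primary STV tumor 2, and 0 to 48 in the others. Myh2 had 5107 counts in recurrent DMAG plus STV tumor 2, 2346 in primary untreated tumor 1, 1069 in gland 2, 727 in recurrent DMAG tumor 3 and 134 in primary STV tumor 2, and 0 to 26 in the others. Recurrent DMAG tumor 3 was the 1 member-rich library with more Myh2 than Myh1, whereas the other 4 had more Myh1.

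As shares of the counts of the 4 myosin heavy chains, Myh4 made up 91.4% (90.9% to 91.9%) in recurrent DMAG tumor 3, 87.0% (85.9% to 88.1%) in primary STV tumor 2, 86.3% (85.9% to 86.7%) in gland 2, 72.1% (71.7% to 72.5%) in recurrent DMAG plus STV tumor 2 and 70.0% (69.5% to 70.5%) in primary untreated tumor 1. Primary STV tumor 2 and gland 2 had overlapping intervals for Myh4, for Myh1 (9.27% and 9.70%) and for Myh2 (3.70% and 4.00%), so their fast myosin mix could not be told apart at this depth. The Myh1 share was 22.2% in primary untreated tumor 1 and 2.74% in recurrent DMAG tumor 3. The Myh2 share was 11.4% in recurrent DMAG plus STV tumor 2, above the 3.70% to 7.85% of the other 4. Each library is 1 tissue sample, so these intervals do not carry the difference between pieces of tissue or between mice.

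**Figure D2:**
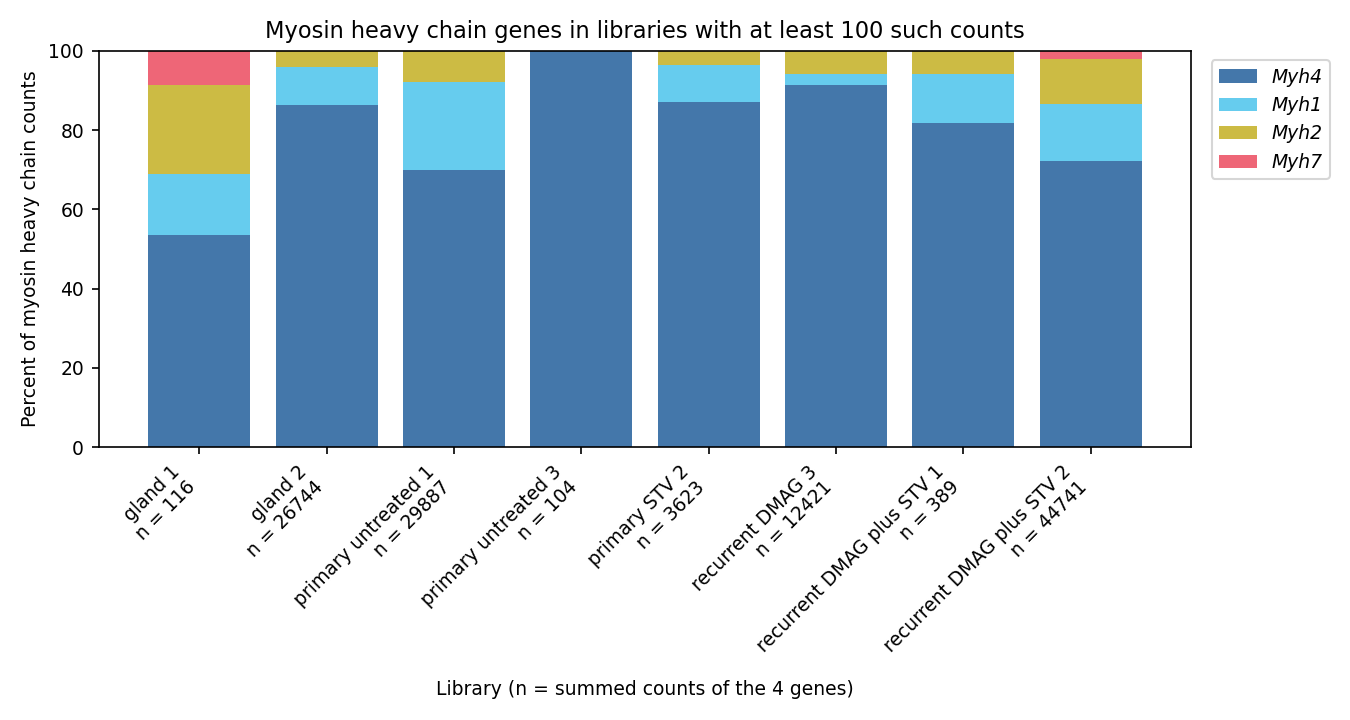
Stacked bars give the percent of myosin heavy chain counts from Myh4, Myh1, Myh2 and Myh7 in each library with at least 100 such counts, with the number of counts (n) under each bar. Myh4 takes 53.4% to 100% of every bar, and Myh7 is visible only in gland 1 (10 of 116 counts) and recurrent DMAG plus STV tumor 2 (2.07%).

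Myh7, the slow chain, was detected in strength in 1 library. It had 928 counts (18.9 CPM) in recurrent DMAG plus STV tumor 2, 10 counts in gland 1 and 0 in the other 11 libraries. In recurrent DMAG plus STV tumor 2 it made up 2.07% of the myosin heavy chain counts (1.95% to 2.21%, or 1.90% to 2.27% with all counts divided by 2), and 2.24% when Myh6 was added to it. Elsewhere the number of myosin counts sets how small a share could have been seen, taken here as 3 counts over that number. The count of 0 among 29887 myosin counts in primary untreated tumor 1 allows a share of up to 0.010%, that among 26744 in gland 2 up to 0.011%, that among 12421 in recurrent DMAG tumor 3 up to 0.024% and that among 3623 in primary STV tumor 2 up to 0.083%. In recurrent DMAG plus STV tumor 1, with 389 myosin counts, a share of up to 0.771% would have gone unseen. With all counts divided by 2, the upper Wilson bounds in these 5 libraries were 0.0257%, 0.0287%, 0.0618%, 0.212% and 1.94% in the same order. With Myh6 added, the share was 0.0268% in primary untreated tumor 1, 0.220% in primary STV tumor 2 and 1.02% in recurrent DMAG plus STV tumor 1, so the limits hold for counts assigned to Myh7 alone. In gland 1 the share was 8.62% on 10 counts (4.75% to 15.1%).

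Other genes of slow fibers were mostly highest in the same library. Of 9 further slow fiber genes, all 9 were above 3 counts in recurrent DMAG plus STV tumor 2, compared with 7 in primary untreated tumor 1 and recurrent DMAG tumor 3, 6 in each gland and 3 to 5 in the other libraries. Among tumors, 8 of the 9 were highest there. The slow ventricular-type light chains Myl2 and Myl3 had 166 and 90 counts in that tumor and at most 6 and 9 elsewhere. The slow troponins Tnnt1, Tnni1 and Tnnc1 had 208, 101 and 132 counts, and Myoz2, a Z-disc protein, had 121.

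Some slow fiber genes did not follow Myh7. Mybpc1, a thick filament protein named for slow muscle, had 2181 counts in recurrent DMAG plus STV tumor 2, 1609 in primary untreated tumor 1, 865 in gland 2, 379 in recurrent DMAG tumor 3 and 141 in primary STV tumor 2, so it was present wherever the fast genes were. Csrp3, a muscle LIM protein, had 108 counts in recurrent DMAG plus STV tumor 2 and 106 in primary untreated tumor 1. Casq2, a calcium store protein, was the 1 gene of the 9 that was highest in another tumor (113 counts in primary untreated tumor 3) and had its highest count of all in gland 2 (318).

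The slow share of troponin counts, from Tnnt1, Tnni1 and Tnnc1 against Tnnt3, Tnni2 and Tnnc2, ordered the member-rich libraries as follows. It was 4.31% (3.94% to 4.73%) in recurrent DMAG plus STV tumor 2, 2.03% (1.57% to 2.61%) in recurrent DMAG tumor 3, 0.793% (0.402% to 1.56%) in primary STV tumor 2, 0.571% (0.413% to 0.790%) in primary untreated tumor 1 and 0.147% (0.0798% to 0.270%) in gland 2. The intervals of primary STV tumor 2 and primary untreated tumor 1 overlapped. With counts divided by 2, that of primary STV tumor 2 (0.309% to 2.02%) also overlapped those of recurrent DMAG tumor 3 (1.42% to 2.90%) and gland 2 (0.0628% to 0.344%), while that of recurrent DMAG plus STV tumor 2 (3.78% to 4.90%) overlapped none of the other 4. Recurrent DMAG tumor 3 thus held slow troponin, mainly 40 Tnnt1 counts, with 0 Myh7 counts. In the 8 other libraries the same share was 21.3% to 90.0%, on 3 to 96 fast troponin counts. There Tnnc1, which the heart also uses, had 6 to 36 counts.

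**Figure D3:**
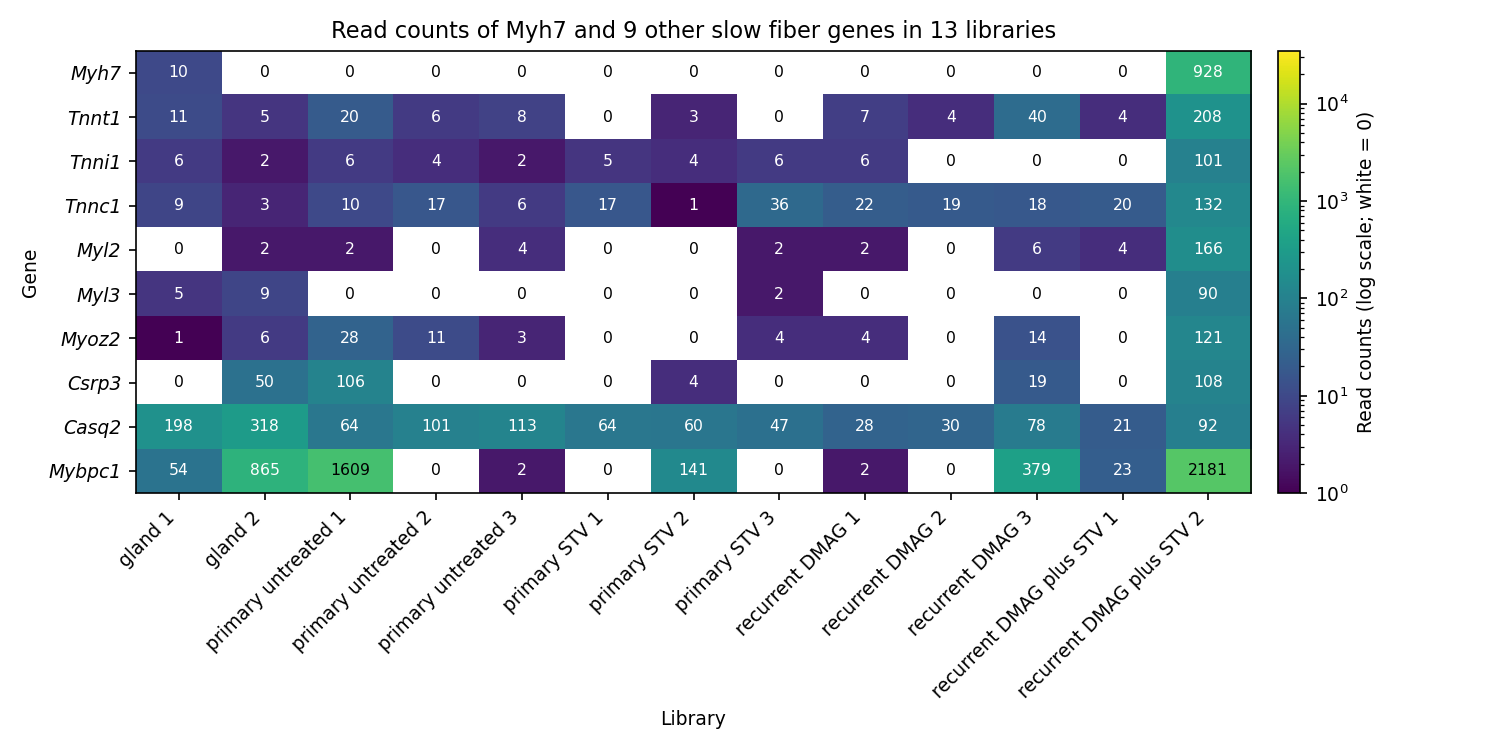
Read counts of Myh7 and 9 other slow fiber genes (rows) in the 13 libraries (columns), printed in each cell and colored on a log scale, with white for 0. Recurrent DMAG plus STV tumor 2 is the 1 column in which all 10 rows are above 3 counts, whereas Mybpc1 is also high in gland 2 (865), primary untreated tumor 1 (1609) and recurrent DMAG tumor 3 (379).

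Most members kept a near-constant ratio to each other, and the myosins Myh1, Myh2 and Myh7 did not. Per 100 Acta1 counts, the 5 member-rich libraries held 17.6 to 22.5 Ckm counts, a highest-to-lowest ratio of 1.28. The same ratio was 1.28 for Tnni2 (9.82 to 12.6), 1.33 for Tnnt3 (28.0 to 37.1), 1.37 for Mylpf (14.1 to 19.3), 1.57 for Tnnc2 (11.3 to 17.8) and 1.6 for Myh4 (162 to 259). It was 3.33 for Myh2 (7.69 to 25.6) and 6.91 for Myh1 (7.75 to 53.6), while Myh7 ran from 0 to 4.66. Member counts themselves differed far more between these libraries, from 7086 to 81692.

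The ratios in recurrent DMAG plus STV tumor 1, the library just under the limit, rest on far fewer counts. Per 100 Acta1 counts it held 199 Myh4 and 31.9 Tnnt3 counts, both within the member-rich range. Ckm (26.9), Mylpf (36.9) and Tnni2 (13.8) were above their ranges there and Tnnc2 (7.5) below. For the slow troponins the highest-to-lowest ratio over the member-rich libraries was 22.7 for Tnnt1 and 24.0 for Tnnc1, but the lowest values, both in gland 2, rest on 5 and 3 counts, so these ratios are imprecise.

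**Figure D4:**
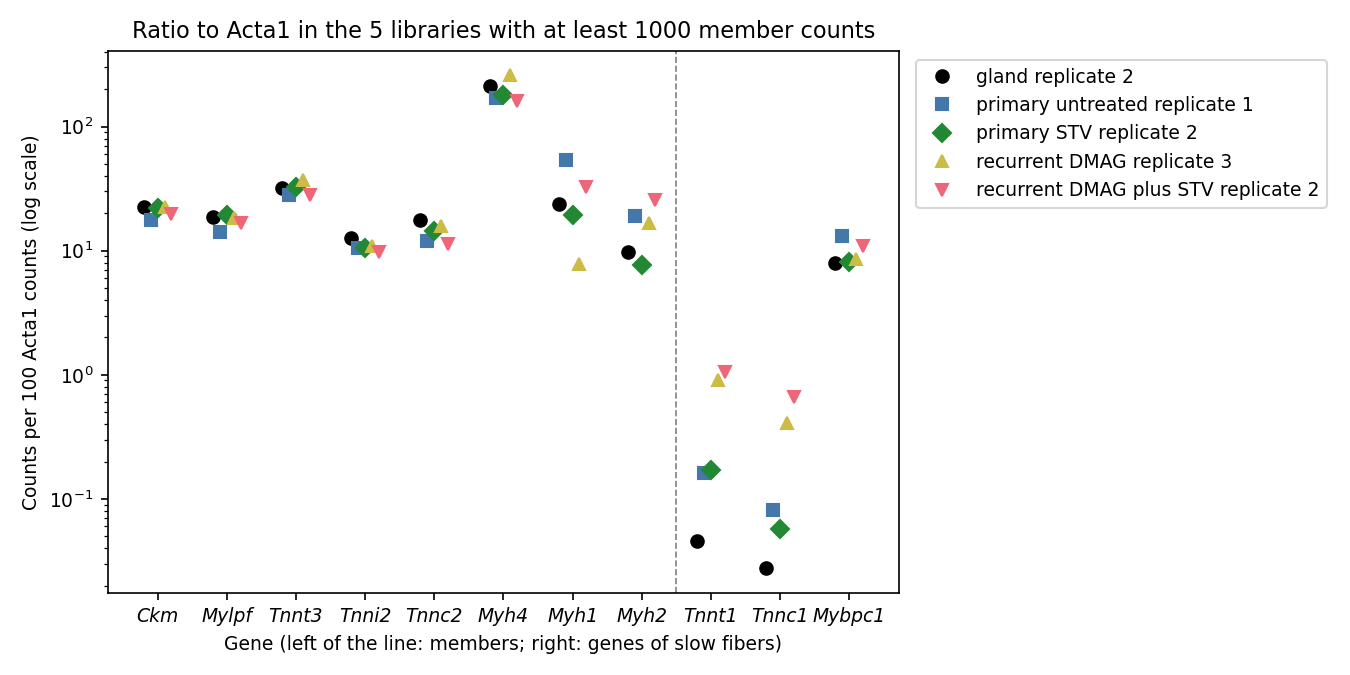
Counts per 100 Acta1 counts (log axis) for 8 members and 3 genes of slow fibers in the 5 libraries with at least 1000 member counts, 1 symbol per library. Ckm, Mylpf and the fast troponins lie within 1.57 times of each other across libraries, Myh1 spreads 6.91 times, and Tnnt1 and Tnnc1 spread 22.7 and 24.0 times, with lowest values that rest on 5 and 3 counts.

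Over the 11 tumors, the log2 CPM values of the 9 members other than Myh7 had pairwise Pearson correlations of 0.92 to 0.99, and the lowest pair with Myh7 had 0.45. These are descriptions only, since a few libraries with high values set them and all points share their library's scaling. Outside the muscle lists, the 10 genes whose log2 CPM followed the members' mean most closely over the 11 tumors were Klhl31 (r = 0.99), Ppp1r3a, Mypn, Hfe2, Scn4a, Lrrc2, Art1, Eef1a2, 3425401B19Rik and Dhrs7c (r = 0.97 for the last). Klhl31 was at 21.4 CPM in recurrent DMAG plus STV tumor 2 and 12.7 CPM in primary untreated tumor 1 and at most 0.156 CPM in the tumors with few member counts. Mypn encodes a Z-disc and thin filament protein and Scn4a the sodium channel of skeletal muscle.

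Most other muscle genes followed the members from library to library. Of 8 further fast fiber genes, all 8 were highest among tumors in recurrent DMAG plus STV tumor 2, and 7 had the same 3 highest tumors (that one, primary untreated tumor 1 and recurrent DMAG tumor 3). The exception, Tmod4, which caps thin filaments, had 117 to 358 counts in every tumor. Of 17 genes of the sarcomere common to both fiber types, 16 were highest in recurrent DMAG plus STV tumor 2 and 16 had those 3 highest tumors. Titin (Ttn) alone had 168177 counts in recurrent DMAG plus STV tumor 2 and 144524 in primary untreated tumor 1, against 270 to 1900 in the tumors with few member counts. Of 16 genes of muscle metabolism and calcium release, 15 were highest in recurrent DMAG plus STV tumor 2 and 12 had the same 3 highest tumors.

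Most genes of immature or regenerating muscle had few counts. The embryonic and neonatal myosins Myh3 and Myh8 had at most 4 and 8 counts in any library, the early actin Actc1 at most 8, and the differentiation factor Myog at most 6. Chrng, the fetal acetylcholine receptor subunit, had 0 to 16 counts, and Myl4, a light chain of embryonic muscle and atrium, had 30 to 83 in every library, with no split by member counts (78 in primary untreated tumor 1 and 83 in primary STV tumor 3). Pax7, which marks satellite cells, had at most 12 counts (primary STV tumor 2), and Myod1, the myoblast factor, at most 30 (recurrent DMAG plus STV tumor 2). Myf6, which mature fibers use, had 48 counts in primary untreated tumor 1, 30 in gland 2 and 16 in recurrent DMAG plus STV tumor 2 and was at 0 in the 8 libraries with few member counts. Heart genes did not follow Myh7 either: the atrial light chain Myl7 was at 0 in all 13 libraries, and the 8 heart genes summed to 4.53 to 12.4 CPM with 11.6 in recurrent DMAG plus STV tumor 2. Within that list Myh6, which shares sequence with Myh7, had 76 counts in recurrent DMAG plus STV tumor 2 and at most 16 elsewhere.

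Among markers of brown fat, Ucp1 and Elovl3 were high in 4 of the 5 member-rich libraries, and Cox8b and Cox7a1 followed less closely. Ucp1, the uncoupling protein that makes heat in brown adipocytes, was at 98.1 CPM in gland 2, 36.7 in primary untreated tumor 1, 15.3 in primary STV tumor 2 and 12.0 in recurrent DMAG tumor 3. It was at 1.06 CPM in recurrent DMAG plus STV tumor 2, at 27.6 in gland 1, where member counts were few, and at 0 to 0.322 in the other 7 tumors. Summed over the 4 brown fat genes, the member-rich libraries ran from 10.2 CPM (recurrent DMAG plus STV tumor 2) to 136 CPM (gland 2), and the other libraries from 3.61 to 45.6. Elovl3, the other defining marker, had 434 counts in gland 2, 120 in primary untreated tumor 1, 105 in primary STV tumor 2 and 61 in recurrent DMAG tumor 3. It had 260 counts in gland 1 and 4 in recurrent DMAG plus STV tumor 2. In the other 7 tumors it had at most 2 counts, with 0 in 5 of them. Cox8b had 124 to 424 counts in the member-rich libraries, 385 in gland 1 and 7 to 64 in the other 7 tumors. Its 178 counts in recurrent DMAG plus STV tumor 2 exceeded the 124 in recurrent DMAG tumor 3. Cox7a1 had 133 to 458 counts in every library, with 444 in primary untreated tumor 3 and 213 in gland 2. The part of brown fat in the member values was not tested.

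Other cell types moved with the members less evenly. All 6 white adipocyte genes were above 3 counts in 12 of the 13 libraries and summed to 566 and 413 CPM in glands 1 and 2. They summed to 110 CPM in recurrent DMAG plus STV tumor 2, 69.3 in primary untreated tumor 1, 56.1 in recurrent DMAG tumor 3 and 36.0 in primary STV tumor 2, against 2.51 to 89.0 in tumors with few member counts. With TMM factors, the 6 mammary epithelial genes summed to 1412 CPM in recurrent DMAG plus STV tumor 2, the lowest of all libraries. They summed to 1898 to 2966 CPM in the others. This rank depends on the scaling of gland 2 (TMM factor 0.493), which was lower than that tumor by library total alone. Genes of epidermis, of which Flg was not in the table, summed to 1.62 to 7.69 CPM. Smooth muscle and myoepithelial genes summed to 43.8 to 1126 CPM, with 226 in recurrent DMAG plus STV tumor 2 and 304 in recurrent DMAG tumor 1. Leukocyte genes summed to 122 to 765 CPM. The part of these cell types in the member values was not tested.

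Differences between the labelled groups were then tested with edgeR's quasi-likelihood method across all genes, with Benjamini-Hochberg adjustment. With TMM factors, primary untreated tumors had lower fitted values than the glands for the 9 members that had counts in both groups. Log2 fold changes were -1.80 to -0.08 (median -1.50, against -0.02 over all genes). None of the 10 tested members was called, where 2.11% of all 17135 genes were called. By library total alone, Myh1 was at 140, 0.081 and 0 CPM in these tumors and at 0.41 and 45.6 CPM in the glands. Myh2 was at 49.5, 0 and 0 CPM and at 0.59 and 18.8 CPM, so these directions depend on the scaling of gland 2. Acta1 was at 82.4 ± 142 CPM (SD, n = 3) in primary untreated tumors and 194 ± 273 CPM (n = 2) in glands (log2 fold change -1.24, SE 3.12, edgeR adjusted p = 0.824). Myh4 was at 140 ± 240 and 412 ± 581 CPM (-1.56, SE 3.49, edgeR adjusted p = 0.800). Myh7, at 0 in all 3 primary tumors and at 0 and 10 counts in the glands, is given no fold change (edgeR adjusted p = 0.472). At an unadjusted p under 0.05 none of the 10 members passed, against 24.5% of all genes, and none had groups that did not overlap, against 18.8% of genes higher and 20.4% lower. DESeq2 called 1 member, Myh7 (adjusted p = 0.00237), on those 10 counts in 1 gland, and gave no p for the other 9. Without gland 2 the median became 5.42, and without primary untreated tumor 1 it became -7.87.

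Under stavudine, primary tumors had lower fitted values than untreated primary tumors for all 9 tested members (-4.14 to -2.18, median -2.60 against -0.03 over all genes). No member was called, and 0% of 16870 genes were. Acta1 was at 12.8 ± 21.8 CPM (n = 3) in primary STV tumors (-2.69 on the log2 scale, SE 2.91, edgeR adjusted p = 1.00), and Myh4 at 23.1 ± 39.4 CPM (-2.60, SE 3.25, edgeR adjusted p = 1.00). Each group held 1 high library: without primary untreated tumor 1 the median turned to 3.81, and without primary STV tumor 2 it was -7.69. Unadjusted, 0 members passed at 0.05, against 3.76% of genes, and groups overlapped for every member, whereas 5% of genes were higher and 5.83% lower without overlap.

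Recurrent DMAG tumors were also lower than primary untreated tumors in the fit of all 9 tested members (-4.19 to -0.82, median -1.08 against -0.0052 over all genes), with 0 members called and 0% of genes called. Acta1 was at 31.3 ± 52.7 CPM (n = 3) in recurrent DMAG tumors (-1.40, SE 2.78, edgeR adjusted p = 0.850), and Myh4 at 79.4 ± 138 CPM (-0.82, SE 3.08, edgeR adjusted p = 0.924). Myh1 had the largest difference (-4.19, SE 3.02, edgeR adjusted p = 0.590). Leaving out primary untreated tumor 1 turned the median to 5.24, and leaving out recurrent DMAG tumor 3 gave -6.69. No member passed at an unadjusted 0.05 (9.69% of genes did), and all members overlapped, where 7.65% of genes were higher and 7.45% lower without overlap.

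The recurrent DMAG plus STV group had higher fitted values than primary STV tumors for all 9 tested members (3.60 to 5.68, median 3.85 against 0.01 over all genes), and again 0 members and 0% of genes were called. Acta1 was at 205 ± 285 CPM (n = 2) in recurrent DMAG plus STV tumors (4.00, SE 3.20, edgeR adjusted p = 0.657), and Myh4 at 332 ± 461 CPM (3.85, SE 3.57, edgeR adjusted p = 0.702). Myh7 was at 0 and 928 counts in these tumors and at 0 in all other tumors, and it did not pass the filter on low counts. The unadjusted test passed 0 members and 10.1% of genes, and all members overlapped, where 17.4% of genes were higher and 17.9% lower without overlap. Without recurrent DMAG plus STV tumor 2 the median was -1.80, and without primary STV tumor 2 it was 9.14.

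Against recurrent DMAG tumors, the same group was higher for all 9 tested members (2.06 to 4.77, median 2.53 against -0.0047 over all genes), with 0 members and 0% of genes called. The values were 2.71 for Acta1 (SE 3.07, edgeR adjusted p = 0.904) and 2.06 for Myh4 (SE 3.40, edgeR adjusted p = 0.946). An unadjusted p under 0.05 was found for 0 members and 7.84% of genes, and no member was free of overlap, against 10.9% of genes higher and 10.5% lower. Without recurrent DMAG plus STV tumor 2 the median was -3.33, and without recurrent DMAG tumor 3 it was 7.99.

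The interaction of recurrence and stavudine asked whether the recurrence difference itself differed between water arms. It was positive for all 9 tested members (4.60 to 8.92, median 4.85 against 0.03 over all genes), with 0 members and 0% of genes called. It was 5.40 for Acta1 (SE 4.23, edgeR adjusted p = 0.780), 4.67 for Myh4 (SE 4.68, edgeR adjusted p = 0.842) and largest for Myh1 (8.92, SE 4.40, unadjusted p = 0.0719, edgeR adjusted p = 0.659). No member passed at an unadjusted 0.05, where 7.84% of genes did. Without primary untreated tumor 1 the median was -1.07, without recurrent DMAG plus STV tumor 2 it was -0.62, without recurrent DMAG tumor 3 it was 10.59 and without primary STV tumor 2 it was 10.49. These 5 tumor comparisons share groups, so their values are not independent of each other. In every tumor comparison DESeq2 gave no p for the 9 members, since it had set their values aside as outlying counts.

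**Figure D5:**
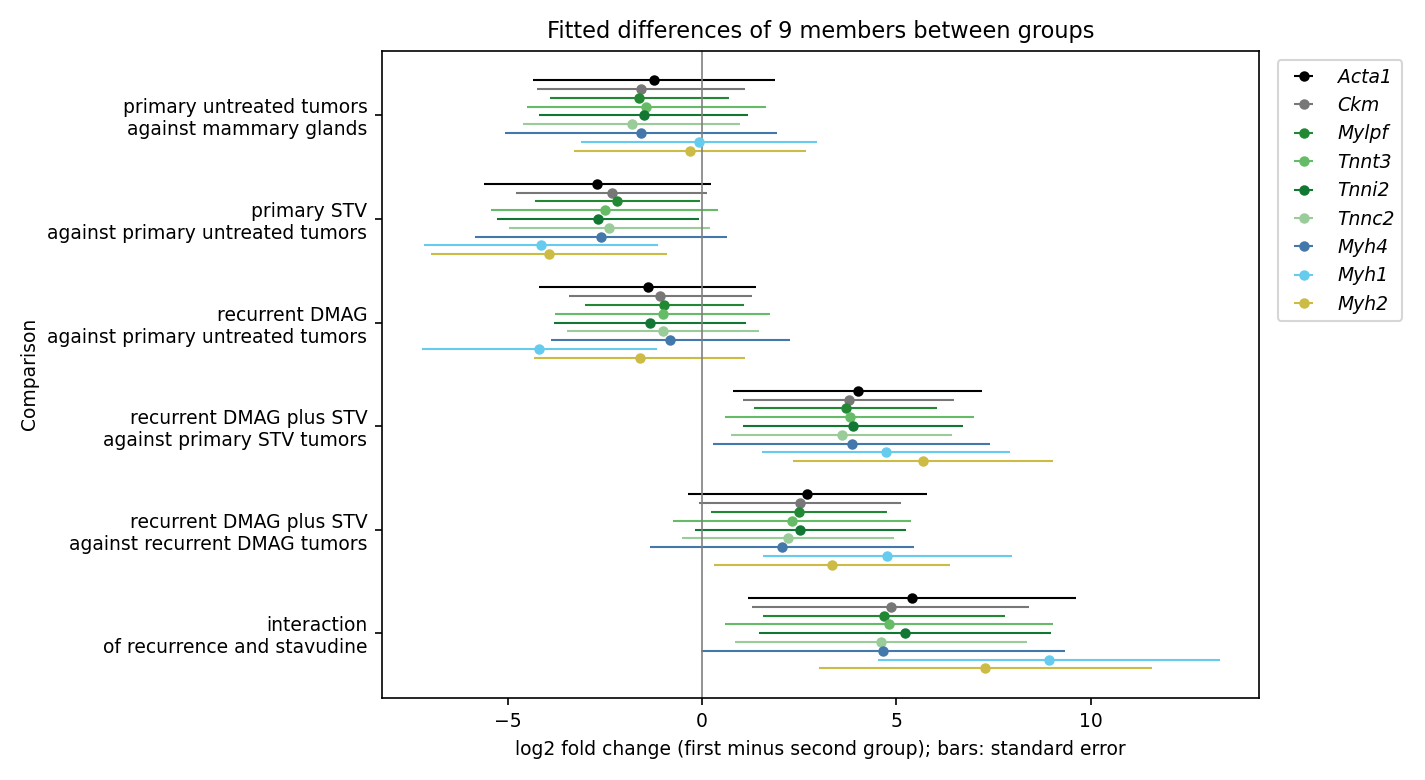
Points give the fitted log2 fold change of each of 9 members (first group minus second) in 6 comparisons. Bars give the standard error, worked out from the F value of the test. In these fits with TMM factors, the points of a comparison lie on 1 side of 0, with standard errors of 2.05 to 4.68. No adjusted p of these 9 genes was under 0.567.

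Of the 8 further fast fiber genes, the 17 sarcomere genes, the 15 tested genes of metabolism and calcium release and the 6 tested slow fiber genes, 0 were called in any of the 6 comparisons. In primary untreated tumors against glands, the medians were -1.59 for the fast genes, -0.97 for the sarcomere genes and -1.24 for those of metabolism and calcium release, whereas the 6 slow genes, 3 higher and 3 lower, had a median of -0.07, near the -0.02 of all genes. The medians were -2.08 for the fast genes, -2.48 for the sarcomere genes and -3.21 for the slow genes in primary STV against primary untreated tumors. In recurrent DMAG plus STV against primary STV tumors they were 3.21, 3.15 and 4.79, while the 4 brown fat genes had fitted values below 0 for all 4, with a median of -1.83 (0 called).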

How the data were processed

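RNA of 13 libraries was sequenced after depletion of ribosomal RNA. According to the methods and labels, the authors aligned reads to mm10/GRCm38 with STAR and deposited raw read counts per gene from featureCounts (Subread 1.6.2); the strand setting and the handling of reads that match several places are not given in the sources used here. Every value was a whole number, and each column was matched to its library by the label. CPM is the count divided by library total and TMM factor. Groups were compared in R 4.3.3 with edgeR 4.0.16 (filterByExpr, TMM, robust quasi-likelihood, two-sided, Benjamini-Hochberg, called under 0.05): the gland comparison on all 13 libraries (17135 genes), the others on the 11 tumors (16870 genes). The edgeR step was tested on simulated counts in which all genes had the same relative spread. That setting lacks the single high library per group that the members show. Alternatives were DESeq2 1.42.0, RLE factors, library totals alone, no filter, only the groups compared, a replicate block and leaving out each library. Members and gene lists (18 lists, with 115 of 118 non-member genes in the table) were chosen with earlier results of these data known. The result of 1 list is not reported here. All members are named; contrasts are printed for Acta1, Myh4 and Myh7, and the 10 most similar genes were taken by Pearson r. Mean and SD are over libraries. The SE of a log2 fold change is its absolute value divided by the square root of the quasi-likelihood F value, so it is approximate.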

Additional observations from a re-analysis of the deposited data

How the results depend on the processing

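Leaving out a member-rich library moved or turned the fitted differences in all 6 comparisons. Leaving out each library in turn, the median log2 fold change of the members ran from -7.87 to 5.42 for primary untreated tumors against glands, from -7.69 to 3.81 for primary STV against primary untreated, from -6.69 to 5.24 for recurrent DMAG against primary untreated, from -1.80 to 9.14 for recurrent DMAG plus STV against primary STV, from -3.33 to 7.99 for it against recurrent DMAG, and from -1.07 to 10.59 for the interaction. In the same order, Acta1 ran from -8.64 to 6.62, -8.42 to 4.71, -6.64 to 6.0, -2.02 to 9.72, -3.33 to 7.96 and -2.0 to 11.11, and Myh4 from -8.59 to 6.89, -8.90 to 4.43, -1.40 to 6.21, -1.88 to 10.13, -3.68 to 3.04 and -2.36 to 10.94. The number of members called stayed at 0 in all of these fits. Where a library was left out of a group of 2, the lone library was assumed to vary like the other groups. A fit in which Myh4 had a group with all libraries at 0 gave no value for it.

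DESeq2 called 1 member (Myh7) against glands, where it called 2352 genes and edgeR 361. With the replicate number as a block, the gland comparison reversed, with a median of 3.65, Acta1 at 4.68 (edgeR adjusted p = 0.619) and Myh4 at 4.27 (edgeR adjusted p = 0.691), and called 4 genes. The labels do not say whether the replicate numbers mark a shared batch. Among tumors, deviations from group means of 15 same-number pairs correlated at -0.30 to 0.22, 2 of them over 0.1. Those of 30 other pairs correlated at -0.37 to 0.37. The pairs share libraries and the glands were left out, so these values cannot decide whether the block applies to the gland comparison. RLE factors, library totals alone, no filter and only the groups compared changed no direction of the median, of Acta1 or of Myh4. They changed no count of called members either. Directions of the other members were not compared across these settings. Mean CPM by library total alone put Myh1 and Myh2 higher in primary untreated tumors than in glands. Summed member CPM by library total alone was 859 in place of 1743 in gland 2.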
